A study of Homo sapiens with 10 samples.

Results

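A set of 9 surface proteins that are targets of imaging agents, antibodies or cell therapies, or candidates for them, in prostate cancer were followed at the RNA level in 5 prostate cancer cell lines. The genes were FOLH1, MME, STEAP1, STEAP2, PSCA, CD276, NECTIN4, CDCP1 and DPP4, and all 9 were rows of a deposited table of 60642 gene symbols. They were chosen by name, with their TPM across the lines of these same data already known, so their levels are a description and were not tested. The samples were untreated cells of LNCaP (clone FGC), DUCAP, VCAP, DU145 and PC3, harvested in exponential growth in RPMI without phenol red that held fetal bovine serum. Each line had 2 biological repeats, which gave 10 samples. LNCaP came from a lymph node metastasis, DUCAP and VCAP from a dural and a vertebral metastasis of the same patient, DU145 from a brain metastasis and PC3 from a bone metastasis. Each is 1 line kept in culture and not a sample of its disease class. The libraries were strand-specific and enriched for polyA RNA. The authors deposited TPM, in which each gene's abundance is scaled by its length and by the sample's total, so that levels of different genes can be compared.

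FOLH1 encodes prostate-specific membrane antigen, a folate and glutamate carboxypeptidase that is the target of clinical radioligands. MME (neprilysin) and DPP4 are membrane peptidases that trim peptides outside the cell. STEAP1 and STEAP2 belong to a family of membrane proteins whose metalloreductase members reduce iron and copper, and PSCA is a small glycolipid-anchored protein of the LY6 family. CD276 (B7-H3) is an immune checkpoint relative. NECTIN4 is a cell adhesion molecule and the target of an approved antibody-drug conjugate, and CDCP1 is a transmembrane protein that SRC family kinases phosphorylate. RNA and not surface protein was measured, and in bulk samples fewer cells that express a gene and less RNA per cell cannot be told apart.

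The sample totals lay between 982880 and 991998 TPM, and since TPM keep no read depth, how many reads lie behind a value is not known. The 37 mitochondrially encoded genes held 12.7 to 36.0% of a sample's TPM and were highest in DUCAP and VCAP, and all other genes share the remainder. Of 4 epithelial markers, KRT8 and KRT18 were at 98.9 TPM or more in every sample and EPCAM at 23.4 TPM or more. The other, KRT19, was at 1.00 to 12.4 TPM in LNCaP, DUCAP and VCAP and at 421 to 842 TPM in DU145 and PC3. The basal keratin gene KRT5 and the T cell gene CD3E were listed at 0 in all 10. The luminal prostate genes KLK3, KLK2 and HOXB13 summed to 2017 to 8332 TPM in LNCaP, DUCAP and VCAP, to 0.09 to 0.67 TPM in DU145 and to 329 to 503 TPM in PC3, where nearly all of it was HOXB13. KLK3 (prostate-specific antigen) and KLK2 were below 1 TPM in every sample of DU145 and PC3, so these defining luminal markers were absent or nearly so there. Basal markers summed to at most 4.56 TPM. The 7 markers of immune, endothelial and stromal cells summed to 1.21 to 39.5 TPM, with the highest sums in PC3, where nearly all of it was COL1A1.

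The STEAP genes are neighbors on the plus strand of chromosome 7 (GRCh38.p14, RefSeq). STEAP1 lies at 90154469 to 90164827 and STEAP2 at 90211740 to 90243408, which leaves 46.9 kb between them. NECTIN4 lies on chromosome 1 (161070998 to 161089558), CD276 on chromosome 15 (73683944 to 73714514) and FOLH1 on chromosome 11 (49145092 to 49208602). MME (155024202 to 155183729) and CDCP1 (45082277 to 45146482) are both on chromosome 3, and DPP4 is on chromosome 2 (161992245 to 162074215). RefSeq start windows matched 7 of the 9 genes with 12 windows, FOLH1 and PSCA being the exceptions. Of these, 4 are printed. The first 3 belong to genes that were highest in LNCaP, then VCAP, then DUCAP, and the last to DPP4, which was not. Each is the 250 bases before the annotated start on the gene's own strand, 5′ to 3′, with searched motifs in capitals.
STEAP1 (chr7:90154219-90154468, plus strand): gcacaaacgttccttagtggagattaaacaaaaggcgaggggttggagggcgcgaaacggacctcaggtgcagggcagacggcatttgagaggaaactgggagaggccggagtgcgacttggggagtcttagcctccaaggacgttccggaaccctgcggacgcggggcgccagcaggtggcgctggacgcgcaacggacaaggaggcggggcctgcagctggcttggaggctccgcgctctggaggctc
STEAP2 (chr7:90211490-90211739, plus strand): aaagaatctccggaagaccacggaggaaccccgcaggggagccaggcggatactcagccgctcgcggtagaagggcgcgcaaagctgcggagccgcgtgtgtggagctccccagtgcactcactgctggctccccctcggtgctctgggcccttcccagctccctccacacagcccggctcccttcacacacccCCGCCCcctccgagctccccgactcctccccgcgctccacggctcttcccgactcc
NECTIN4 (chr1:161089559-161089808, minus strand): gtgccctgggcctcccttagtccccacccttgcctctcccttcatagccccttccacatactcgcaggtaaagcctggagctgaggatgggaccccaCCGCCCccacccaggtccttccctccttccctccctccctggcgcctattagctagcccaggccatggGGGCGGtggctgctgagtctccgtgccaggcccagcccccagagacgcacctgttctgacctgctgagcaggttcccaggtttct
DPP4 (chr2:162074216-162074465, minus strand): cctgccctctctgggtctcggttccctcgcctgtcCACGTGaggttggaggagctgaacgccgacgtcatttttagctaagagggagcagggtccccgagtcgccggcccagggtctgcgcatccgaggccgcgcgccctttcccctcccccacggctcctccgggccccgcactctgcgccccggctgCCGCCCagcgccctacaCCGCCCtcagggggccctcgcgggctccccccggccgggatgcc
The motifs were the GC box GGGCGG, the CCAAT box CCAAT, the E-box CACGTG, the cAMP response element TGACGTCA, the TATA box TATAAA and the forkhead motif TGTTTAC, all searched on both strands. Of 35116 RefSeq windows of the same length, 42.6% held the GC box, 32.0% the CCAAT box and 6.34% the E-box. The cAMP response element was in 1.65%, the TATA box in 10.7% and the forkhead motif in 2.98%. No searched motif overlapped another in the 4 windows printed. None of these letter strings was in the STEAP1 window, and 1 GC box was in that of STEAP2 (56 bases before the start). The NECTIN4 window held 2 GC boxes, and that of DPP4 held 2 GC boxes and 1 E-box. The GC content was 64.4% for STEAP1, 69.6% for STEAP2, 65.2% for NECTIN4 and 73.6% for DPP4, against a median of 58.0% over all windows. A match describes the letters only. STEAP2 has a further annotated start inside the gene, whose window (90213570 to 90213819) had 32.8% GC, 2 CCAAT boxes, 1 TATA box and 1 forkhead match. TPM per gene do not show which start was used.

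Among the peptidases, FOLH1 was at 682 and 878 TPM in LNCaP, 70.8 and 78.4 TPM in VCAP, 4.97 and 40.9 TPM in PC3, 1.77 and 1.99 TPM in DUCAP, and 0.09 and 0.27 TPM in DU145. No neighbors in this order of lines overlapped, and the line mean of LNCaP was 4335 times that of DU145. MME was at 736 and 916 TPM in LNCaP, 9.74 and 15.6 TPM in DUCAP, 3.42 and 2.81 TPM in PC3, 1.37 and 3.68 TPM in VCAP, and 1.84 and 3.03 TPM in DU145. LNCaP was far above the other lines, DUCAP came next, and the repeats of the 3 lowest lines overlapped each other. LNCaP held 0.927 and 0.959 TPM of FOLH1 per TPM of MME, so both genes were at like levels there. VCAP held 51.6 and 21.3 TPM of FOLH1 per TPM of MME and DUCAP 0.182 and 0.128. DUCAP and VCAP, which share a patient of origin, thus differed in opposite directions for these genes. DPP4, the third peptidase, was at 24.0 and 33.2 TPM in PC3, 18.3 and 30.4 TPM in DUCAP, 10.1 and 14.9 TPM in VCAP, 2.26 and 1.93 TPM in LNCaP, and 2.33 and 0.86 TPM in DU145. PC3 and DUCAP overlapped at the top, LNCaP and DU145 overlapped at the bottom, and VCAP lay between them without overlap. The line with the most FOLH1 and MME was thus among the lowest for DPP4.

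STEAP1 was at 344 and 383 TPM in LNCaP, 117 and 113 TPM in VCAP, 41.6 and 46.6 TPM in DUCAP, 26.3 and 19.5 TPM in PC3, and 12.6 and 19.6 TPM in DU145. STEAP2 was at 190 and 234 TPM in LNCaP, 107 and 95.9 TPM in VCAP, 30.4 and 37.7 TPM in DUCAP, 6.58 and 5.13 TPM in DU145, and 5.56 and 4.03 TPM in PC3. Both followed the order LNCaP, VCAP, DUCAP without overlap, and DU145 and PC3 overlapped below these. The highest line mean was 22.5 times the lowest for STEAP1 and 44.2 times for STEAP2. STEAP1 exceeded STEAP2 in all 10 samples, by 1.10 to 1.81 times in LNCaP, DUCAP and VCAP, by 1.92 and 3.82 times in DU145, and by 4.74 and 4.85 times in PC3. In DU145 and PC3 the repeats' ratios were all above those of the other 3 lines.

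Of the adhesion and immune genes, CD276 was at 148 and 160 TPM in VCAP, 109 and 135 TPM in DUCAP, 97.5 and 98.2 TPM in LNCaP, 60.9 and 53.3 TPM in DU145, and 51.3 and 48.4 TPM in PC3. It was the antigen with the narrowest range, 3.09-fold from the lowest to the highest line mean, although no neighboring lines overlapped. NECTIN4 was at 7.90 and 8.84 TPM in LNCaP, 3.0 and 1.83 TPM in VCAP, 1.10 and 1.09 TPM in DUCAP, and 0.06 and 0.01 TPM in PC3. In DU145 it was at 0.06 TPM in the first repeat and listed at 0 in the second. NECTIN4 took the order of the STEAP genes at a much lower level. PSCA, on chromosome 8, was at 5.88 and 6.05 TPM in DU145, 5.94 and 5.51 TPM in LNCaP, 5.30 and 1.82 TPM in VCAP, 3.26 and 3.84 TPM in DUCAP, and 1.02 and 0.84 TPM in PC3. PC3 lay below all other samples for PSCA. DU145 overlapped LNCaP and VCAP overlapped DUCAP, and all samples of DU145 and LNCaP lay above those of VCAP and DUCAP, by a narrow margin (5.51 against 5.30 TPM).

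CDCP1 was at 180 and 130 TPM in PC3, 59.5 and 84.1 TPM in DU145, 22.9 and 20.6 TPM in LNCaP, 14.0 and 14.9 TPM in VCAP, and 11.01 and 14.2 TPM in DUCAP. PC3, DU145 and LNCaP did not overlap each other or the rest, and VCAP and DUCAP overlapped. It was the only one of the 9 genes with all samples of DU145 and PC3 above all samples of the other 3 lines, and its highest line mean was 12.3 times its lowest.

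**Figure D1:**
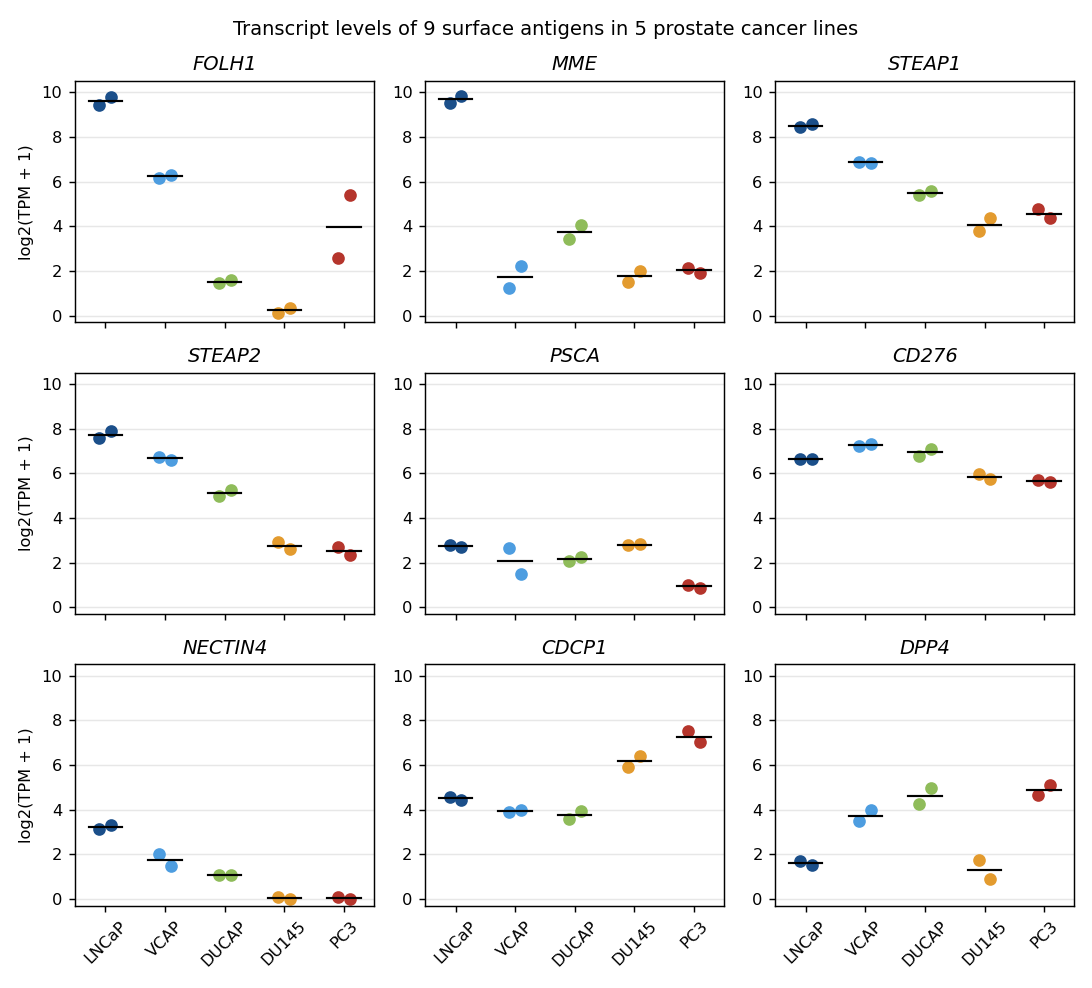
Transcript level of each of the 9 antigen genes, as log2(TPM + 1), in LNCaP, VCAP, DUCAP, DU145 and PC3; points are the 2 biological repeats and bars the mean of their log2 values. LNCaP is highest for FOLH1, MME, STEAP1, STEAP2 and NECTIN4, PC3 for CDCP1, and the FOLH1 repeats of PC3 stand apart at 4.97 and 40.9 TPM.

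Summed over the 9 antigens, LNCaP held 2089 and 2547 TPM, VCAP 476 and 485 TPM, PC3 297 and 280 TPM, DUCAP 226 and 286 TPM, and DU145 150 and 172 TPM. The antigen at the top differed by line. It was MME in both LNCaP repeats, CD276 in DUCAP and VCAP, CDCP1 in PC3, and CD276 in the first and CDCP1 in the second repeat of DU145. At least 10 TPM in both repeats was reached by 6 of the 9 genes in LNCaP and in VCAP, 5 in DUCAP, 4 in PC3 and 3 in DU145 (STEAP1, CD276 and CDCP1). These 3 genes were at 10 TPM or more in every sample of all 5 lines. By line mean, FOLH1 exceeded 99.1% of the 17520 tested genes (those that reached 1 TPM in 2 or more samples) in LNCaP and 7.90% in DU145. CD276 stayed above 81.8 to 96.8% of them in all lines. PSCA and NECTIN4 exceeded at most 49.2% of these genes in any line.

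**Figure D2:**
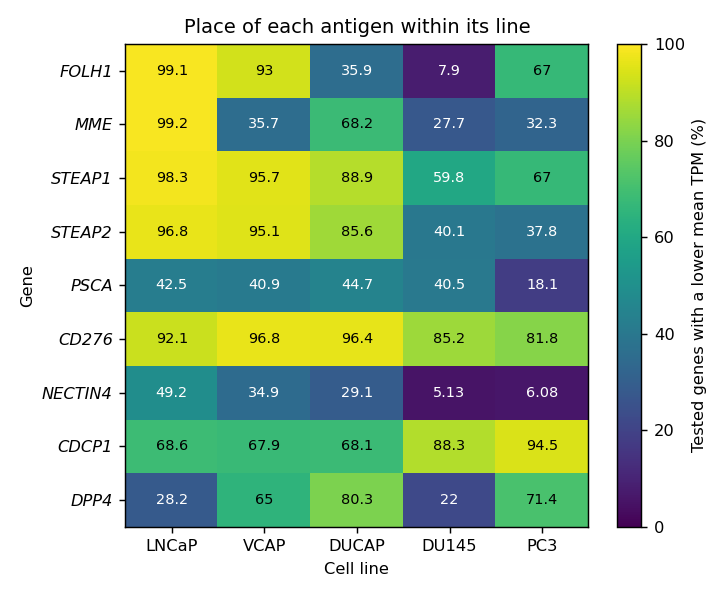
Percentage of the 17520 tested genes whose mean TPM in a line was below that of each antigen, with antigens in rows and lines in columns; a color bar gives the percentage. FOLH1 runs from 99.1% in LNCaP to 7.90% in DU145, and CD276 from 81.8% in PC3 to 96.8% in VCAP.

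The lines were then set against each other in 4 contrasts of mean log2(TPM + 1): DU145 and PC3 against LNCaP, DUCAP and VCAP, DU145 against PC3, LNCaP against DUCAP and VCAP, and DUCAP against VCAP. Because the antigens were listed with these levels known, their differences carry a standard error (SE) from the spread between the repeats of the 5 lines and no test. For FOLH1 this SE came mostly from the PC3 repeats, also in contrasts without PC3. Their log2 gap was 2.81, against 0.36 in LNCaP, 0.11 in DUCAP, 0.15 in VCAP and 0.22 in DU145. For PSCA and MME the largest gap was that of VCAP (1.16 and 0.98), which also enters their SE in DU145 against PC3. The PSCA gap was 0.04 in DU145 and 0.13 in PC3, and that of MME 0.50 and 0.21. Differences on this scale understate changes of low genes. In DU145 and PC3 against the other 3 lines, 1 antigen (CDCP1) was higher in every sample and 4 (STEAP1, STEAP2, CD276 and NECTIN4) were lower in every sample. The groups overlapped for FOLH1, MME, PSCA and DPP4. Of all tested genes, 26.7% did not overlap in this contrast, and limma called 51.9% higher and 22.5% lower at an adjusted p of 0.05. The log2 difference was 2.65 ± 0.16 (SE) for CDCP1, −3.86 ± 0.14 for STEAP2, −2.64 ± 0.16 for STEAP1, −1.97 ± 0.11 for NECTIN4 and −1.18 ± 0.08 for CD276. FOLH1 (−3.68 ± 0.58) and MME (−3.15 ± 0.27) had differences as large with overlapping groups. For FOLH1, DUCAP lay above DU145 and below PC3, and for MME, VCAP overlapped both. PSCA (−0.46 ± 0.24) and DPP4 (−0.23 ± 0.27) differed least. The median over the 9 antigens was −1.97, against 0.40 over all tested genes. The luminal marker sums given above differed in the same contrast without overlap. HOXB13 alone overlapped, at 328 and 502 TPM in PC3 and 0.03 and 0.02 TPM in DU145, against 52.1 to 201 TPM in the other lines. The part of these markers in the antigen differences was not tested. The mitochondrial shares overlapped, at 12.7 to 22.5% in DU145 and PC3 and 18.9 to 36.0% in the other lines. Without mitochondrial genes the difference was −4.14 for STEAP2, −2.89 for STEAP1 and −1.43 for CD276. That of CDCP1 was 2.09 to 2.71 over a pseudocount of 0.1, this rescaling, median-ratio scaling and quantile normalization.

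DU145 and PC3 differed for 5 of the 9 antigens without overlap, against 71.1% of all tested genes, of which limma called 23.8% higher and 25.5% lower in DU145. PSCA (1.85 ± 0.38) and CD276 (0.19 ± 0.12) were higher in DU145, and CDCP1 (−1.11 ± 0.25), DPP4 (−3.55 ± 0.41) and FOLH1 (−3.75 ± 0.90) were higher in PC3. STEAP1, STEAP2, MME and NECTIN4 overlapped, with differences between −0.50 and 0.25. The FOLH1 value rested on which PC3 repeat was used, being −2.34 without the second repeat and −5.16 without the first.

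LNCaP was above every DUCAP and VCAP sample for 7 antigens and below every one for CD276 and DPP4, so that none of the 9 overlapped. Of all tested genes, 69.3% did not overlap, and limma called 49.2% higher and 15.5% lower. The log2 difference was 6.95 ± 0.36 for MME (123-fold on this scale), 5.72 ± 0.78 for FOLH1 (52.6-fold), 2.33 ± 0.21 for STEAP1, 1.83 ± 0.18 for STEAP2 and 1.82 ± 0.15 for NECTIN4. CDCP1 (0.65 ± 0.21) and PSCA (0.62 ± 0.32) were near the median of all tested genes, 0.47. They came to 0.03 and 0.08 after median-ratio scaling of the samples, which moved that median to 0. DPP4 was at −2.55 ± 0.36 and CD276 at −0.48 ± 0.11, and under the same scaling they came to −3.10 and −1.13. DUCAP was above VCAP for MME (2.00 ± 0.42) and DPP4 (0.89 ± 0.41). It was below VCAP for FOLH1 (−4.71 ± 0.90), STEAP2 (−1.55 ± 0.21), STEAP1 (−1.37 ± 0.24), NECTIN4 (−0.68 ± 0.17) and CD276 (−0.34 ± 0.12). PSCA (0.11 ± 0.38) and CDCP1 (−0.19 ± 0.25) overlapped in this contrast. Their signs turned without the second VCAP repeat (−0.47 for PSCA) and under median-ratio scaling (0.01 for CDCP1). Of all tested genes, 59% did not overlap between DUCAP and VCAP, and limma called 4.24% higher and 14% lower in DUCAP.

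**Figure D3:**
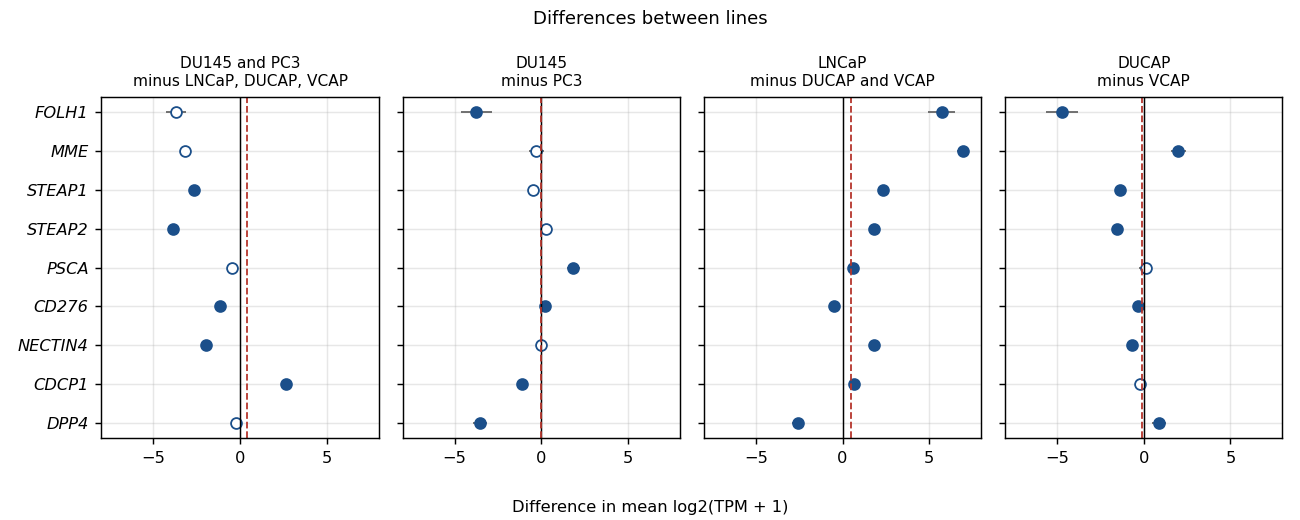
Difference in mean log2(TPM + 1) of the 9 antigen genes in the 4 contrasts; bars are the SE from the repeats, filled points mark groups whose samples did not overlap, and the dashed line is the median of all tested genes. The differences of FOLH1 and MME are largest in LNCaP against DUCAP and VCAP (5.72 and 6.95), and CDCP1 is the filled point on the right in DU145 and PC3 against the rest (2.65).

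The FOLH1 repeats of PC3 differed 8.24-fold, a gap of 2.81 on the log2(TPM + 1) scale, which 16 of the 17520 tested genes (0.0913%) reached between these 2 samples. FOLH1 was the only one of 13287 tested protein-coding genes in RefSeq to do so, and the next was the histone gene H4C15 with a gap of 2.50. In the PC3 repeats, the first named first, MME was at 3.42 and 2.81 TPM (mean of 826 in LNCaP) and KLK3 at 0.77 and 0.11 TPM (1770 in LNCaP). KLK2 was listed at 0 and then at 0.19 TPM (6496 in VCAP). HOXB13 was at 328 and 502 TPM, against 201 and 196 TPM in LNCaP and 115 and 93.3 TPM in VCAP. Among the other repeats, PSCA in VCAP (5.30 and 1.82 TPM) and MME in VCAP (1.37 and 3.68 TPM) lay far apart for their levels.

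Relatives and partners of the antigens were compared next. These were 45 genes of a list written by hand with earlier results of these data known, and 31 of them passed the filter. Limma called 20 higher and 8 lower in DU145 and PC3 than in the other 3 lines, and 14 higher and 6 lower in DU145 than in PC3. It called 10 and 10 in LNCaP against DUCAP and VCAP, and 1 and 5 in DUCAP against VCAP, with adjustment over all tested genes. Calls were 90.3, 64.5, 64.5 and 19.4% of the tested relatives in the order of these contrasts. The shares of all tested genes called higher and lower were 51.9 and 22.5%, 23.8 and 25.5%, 49.2 and 15.5%, and 4.24 and 14%. Median differences of the relatives were 0.69, 0.31, 0.12 and −0.28, against 0.40, 0, 0.47 and −0.12 over all tested genes. The balance in LNCaP against DUCAP and VCAP moved to 5 higher and 13 lower under median-ratio scaling (27.8% higher, against 51.3% of all calls). After removal of the mitochondrial genes it was 7 and 11 (38.9%, against 66.6%). That of DU145 and PC3 against the rest moved to 14 and 9 under quantile normalization (60.9%, against 46.9%). DUCAP against VCAP gave 3 and 5 under median-ratio scaling (37.5%, against 45.8%). Differences of these genes are given with limma's SE and, where no contrast is named, are those of DU145 and PC3 minus the other 3 lines.

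In the family of FOLH1, NAALAD2, a related peptidase, was at 15.7 and 17.2 TPM in VCAP and at 2.05 TPM or less elsewhere (DUCAP minus VCAP −4.02 ± 0.19, adjusted p = 1.1e-05). FOLH1B, a transcribed pseudogene on chromosome 11 (89659268 to 89698718) that is nearly identical to FOLH1, was at most 1.85 TPM in any sample and listed at 0 in DU145 and PC3. Reads of such copies may have been split between them. NAALADL1 stayed at or below 0.12 TPM. Of the relatives of MME, MMEL1, its closest, was at 24.1 and 31.0 TPM in LNCaP and at 1.98 TPM or less in the other lines, a difference of 3.84 ± 0.21 against DUCAP and VCAP (adjusted p = 2e-06). ECE1, the endothelin-converting enzyme, ran the other way, with 6.40 and 8.78 TPM in LNCaP against 32.6 to 104 TPM elsewhere (−2.06 ± 0.16 against DUCAP and VCAP, adjusted p = 1.3e-05). PHEX was above 1 TPM only in PC3 (2.31 and 2.10 TPM), and ECE2, ECEL1 and KEL were below 1 TPM in every sample. STEAP3, the family's iron reductase in red blood cell precursors, was at 22.8 to 26.8 TPM in DU145 and PC3 and at 3.91 to 9.27 TPM in the other lines (1.84 ± 0.10, adjusted p = 7.2e-07), the reverse of STEAP1 and STEAP2. STEAP4 was highest in DUCAP (3.13 and 4.87 TPM), and STEAP1B, a close copy of STEAP1 elsewhere on chromosome 7, was at 1.82 and 2.93 TPM in DU145 and at most 0.14 TPM in the other lines.

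Of the LY6 relatives of PSCA, PLAUR, the urokinase receptor, was at 59.3 to 78.0 TPM in DU145 and PC3 and at 0.46 to 3.25 TPM in the rest (4.73 ± 0.09, adjusted p = 6.7e-09). CD59, an inhibitor of complement, reached 787 and 897 TPM in PC3 and 122 and 160 TPM in DU145, against 26.4 to 79.7 TPM in the rest (2.94 ± 0.12, adjusted p = 1.3e-07). LY6K was at 41.6 and 104 TPM in DU145 and at most 0.27 TPM in the other lines. LY6E (393 and 229 TPM, against 35.2 to 99.2 TPM elsewhere) and LYPD3 (35.0 and 15.0 TPM, against 2.41 to 9.43 TPM) were also highest there. LY6D was listed at 0 in all samples. Of the B7 relatives of CD276, VSIR (VISTA) was at 65.1 and 36.5 TPM in DU145 and 15.3 and 8.99 TPM in PC3 and at most 0.30 TPM in the rest (4.52 ± 0.19, adjusted p = 2.2e-07). CD274 (PD-L1) was at 4.55 and 12.2 TPM in DU145, 5.00 and 7.75 TPM in LNCaP and at most 1.64 TPM in the other lines (LNCaP minus DUCAP and VCAP 2.10 ± 0.35, adjusted p = 9e-04). ICOSLG and NCR3LG1 stayed at or below 4.64 TPM, and PDCD1LG2, VTCN1, CD80, CD86 and HHLA2 were below 1 TPM in every sample. CD276 was above each of these relatives in all samples except the first DU145 repeat, where VSIR stood at 65.1 TPM against 60.9 TPM of CD276.

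Of the nectins, NECTIN2 (39.4 to 94.7 TPM) and NECTIN1 (11.1 to 44.1 TPM) were present in all samples and exceeded NECTIN4 in each. NECTIN3 was at 17.6 to 21.9 TPM in PC3 and 7.91 to 8.98 TPM in DU145 but 0.22 to 6.51 TPM in the rest (2.40 ± 0.13, adjusted p = 8.1e-07), a contrast in which NECTIN4 was lower. PVR, the poliovirus receptor, was highest in DU145 (94.3 and 90.6 TPM). CADM1 was at 0.01 and 0.11 TPM in PC3 against 35.9 and 42.6 TPM in DU145 (DU145 minus PC3 5.24 ± 0.21, adjusted p = 5.3e-07). Among the partners of CDCP1, ST14, the protease matriptase that cleaves it, was at 76.1 to 111 TPM in LNCaP, DUCAP and VCAP, 10.8 and 13.6 TPM in DU145 and 0.48 and 0.62 TPM in PC3 (−4.33 ± 0.10, adjusted p = 1.1e-08). PC3 and DU145, the highest lines for CDCP1, were thus the lowest for ST14. The kinase YES1 was at 53.0 to 69.4 TPM in DU145 and PC3 and 17.8 to 28.3 TPM in the rest (1.40 ± 0.09, adjusted p = 2.6e-06). PRKCD was at 22.7 to 32.6 TPM in DU145 and PC3 and 49.0 to 59.6 TPM in the rest (−0.96 ± 0.09, adjusted p = 1.9e-05), and FYN was at most 16.0 TPM in any sample. SRC was at 76.2 to 111 TPM in PC3, DUCAP and VCAP and at 21.2 to 29.4 TPM in LNCaP and DU145. CDCP2 was at most 0.03 TPM. Of the relatives of DPP4, the cytosolic peptidase DPP9 was at 108 to 189 TPM in DU145 and PC3 and 5.59 to 29.1 TPM in the rest (3.32 ± 0.17, adjusted p = 6.5e-07). DPP8 and PREP lay between 8.42 and 23.9 TPM in all samples, and FAP, DPP6 and DPP10 were at most 0.07 TPM. ADA, the adenosine deaminase that DPP4 binds, was at 14.3 to 18.8 TPM in LNCaP and DU145, the lines lowest in DPP4, and at 2.97 to 8.34 TPM in the others.

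A hand-written list of 46 other surface antigens, 38 of them tested, served as a wider comparison. Limma called 25 higher and 9 lower in DU145 and PC3 than in the rest, and 14 higher and 11 lower in DU145 than in PC3. It called 19 and 7 in LNCaP against DUCAP and VCAP, and 2 and 6 in DUCAP against VCAP. Over all tested genes, limma called 51.9% higher and 22.5% lower, 23.8% and 25.5%, 49.2% and 15.5%, and 4.24% and 14% in the same order. Higher calls were 73.5, 56.0, 73.1 and 25.0% of the list's calls, against 69.8, 48.3, 76.1 and 23.2% of all calls. Median differences were 1.07, 0.08, 0.52 and −0.10, against 0.40, 0, 0.47 and −0.12 over all tested genes. In DU145 and PC3 against the rest, higher calls were 66.7% of the list's calls under median-ratio scaling, against 52.1% of all calls. Quantile normalization gave 65.5%, against 46.9%. Median-ratio scaling gave 14 and 12 in LNCaP against DUCAP and VCAP (53.8% higher, against 51.3% of all calls). It gave 5 and 3 in DUCAP against VCAP (62.5%, against 45.8%). That last contrast gave 2 to 13 calls in all with single samples left out. The calls of DU145 against PC3 numbered 15 without the second PC3 repeat. By the rule for named genes, the receptor tyrosine kinases EPHA2 (6.41 ± 0.18, adjusted p = 2.6e-08) and MET (5.37 ± 0.17, adjusted p = 4.1e-08) and the hyaluronan receptor CD44 (4.20 ± 0.17, adjusted p = 1.4e-07) rose most in DU145 and PC3, where CDCP1 was also high. SLC44A4 (−5.57 ± 0.10, adjusted p = 6.6e-09), TMEFF2 (−5.16 ± 0.12, adjusted p = 1.4e-08) and the serine protease HPN (−4.54 ± 0.27, adjusted p = 1.3e-06) fell most there. Between DU145 and PC3, the tissue factor gene F3 (4.30 ± 0.27, adjusted p = 6e-06) and CD24 (3.86 ± 0.24, adjusted p = 5.7e-06) were higher in DU145. GRPR (−3.98 ± 0.38, adjusted p = 6.4e-05), NTSR1 (−3.35 ± 0.26, adjusted p = 2.2e-05) and NRP1 (−2.50 ± 0.22, adjusted p = 4.6e-05) were higher in PC3.

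In LNCaP against DUCAP and VCAP, ERBB2 (3.67 ± 0.22, adjusted p = 2.9e-06), ERBB3 (3.09 ± 0.30, adjusted p = 3.9e-05) and CLDN3 (2.93 ± 0.24, adjusted p = 1.6e-05) were higher, as MME and FOLH1 were. CD24 (−5.07 ± 0.21, adjusted p = 5e-07), CD44 (−4.24 ± 0.22, adjusted p = 1.6e-06) and GRPR (−3.56 ± 0.33, adjusted p = 2.9e-05) were lower. Between DUCAP and VCAP, TMEFF2 (1.52 ± 0.19, adjusted p = 0.0013) and TM4SF1 (1.25 ± 0.25, adjusted p = 0.011) were higher in DUCAP. TRPM8 (−5.51 ± 0.16, adjusted p = 8.5e-07), L1CAM (−1.31 ± 0.35, adjusted p = 0.036) and EGFR (−1.03 ± 0.20, adjusted p = 0.0094) were higher in VCAP. Over the alternatives, leaving out single samples among them, the adjusted p reached 0.068 for TM4SF1, 0.17 for L1CAM and 0.071 for EGFR. Among these 46 genes 10 were at 10 TPM or more in every sample, as were STEAP1, CD276 and CDCP1 of the 9 antigens, and 7 were below 1 TPM in every sample.

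**Figure D4:**
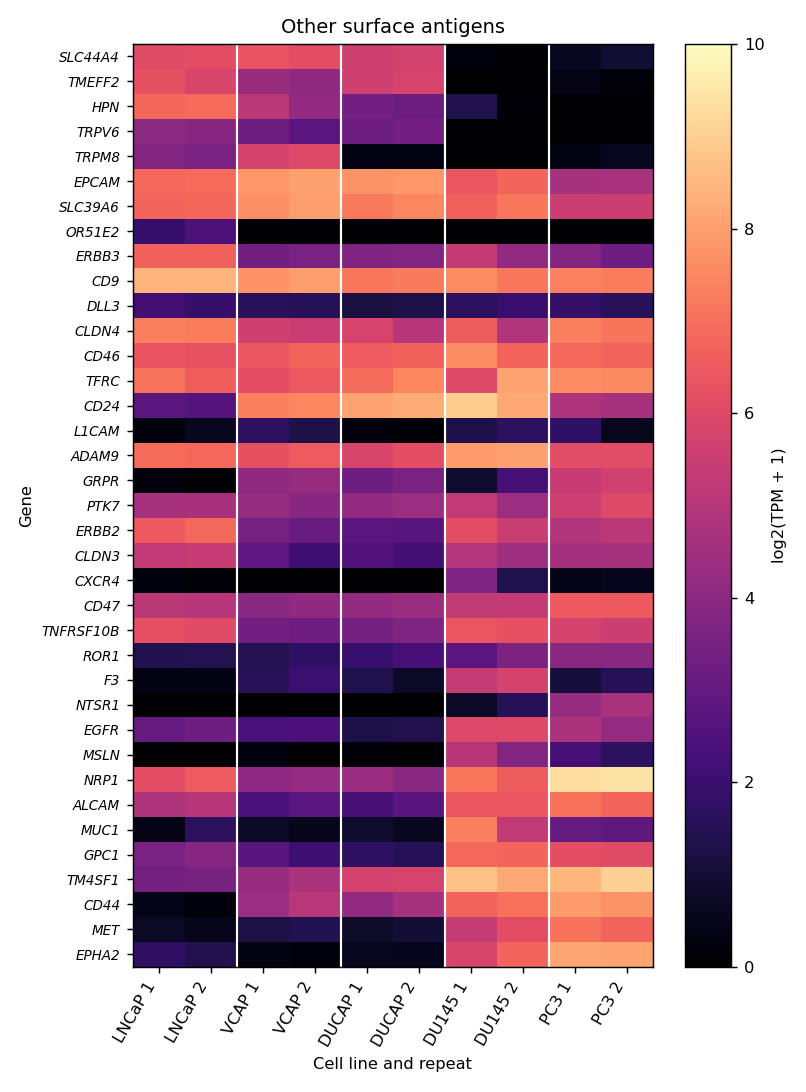
Levels of 37 of the 38 tested genes of the list of other surface antigens, as log2(TPM + 1), in the 10 samples; color gives the level and rows are sorted by the difference of DU145 and PC3 from the other lines. SLC44A4 and TMEFF2 at the top are low in DU145 and PC3, and MET and EPHA2 at the bottom are low in the other 3 lines.

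Within the set, profiles of line means on the log2(TPM + 1) scale were compared by the root mean square difference after centering, over 5 lines. They were most alike for STEAP1 and NECTIN4 (0.46) and for STEAP1 and STEAP2 (0.67). The added 1 TPM compresses low levels, such as those of NECTIN4 in DU145 and PC3. In TPM, the highest line mean was 279 times the lowest for NECTIN4 and 22.5 times for STEAP1. For antigens whose line means spanned 4 log2 units or more, the 2 most similar profiles among all tested genes were taken. STEAP1 was closest to AC100757.2 (0.17), whose line means were 0 TPM in DU145 and 0.7 TPM in PC3, where the added 1 TPM weighs most. Next was PPP3CA, a calcineurin subunit (0.18). Its line means were 261 TPM in LNCaP, 105 in VCAP, 43.0 in DUCAP, 22.8 in PC3 and 15.9 in DU145. STEAP2 was closest to SYNE4 (0.41) and PLA2G4F (0.45). MME was closest to MAGEA2 and MAGEA3 (0.66 each), cancer-testis genes of the X chromosome whose near-identical copies may share reads. These were at 71.2 and 138 TPM in LNCaP and at most 8.15 TPM in any other line. The nearest profiles to FOLH1, SYT4 (1.31) and PRSS8 (1.56), were less close, and both were below 1 TPM in PC3, where FOLH1 was not.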

How the data were processed

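RNA-seq reads were trimmed, aligned with STAR to GRCh38 and quantified with RSEM by the authors, who deposited TPM for 60642 gene symbols without a stated scaling between samples (Trim Galore 0.6.5, STAR 2.7.2b and RSEM 1.3.3 per the submitters' processing notes). How rows that shared a symbol were merged is not given in the sources used here. Groups and repeat numbers came from the labels, the culture numbers in the DU145 and PC3 labels were not used, and nothing in the labels ties repeats of different lines. No pair of columns was identical. The analysis scale was log2(TPM + 1). Of all genes, 17520 reached 1 TPM in 2 or more samples and were fitted by limma 3.58.1 (R 4.3.3). The model held a mean for each line, used all 10 samples and let the prior variance follow the mean level. P-values were adjusted by the Benjamini-Hochberg method over all tested genes within each of 4 contrasts, at a threshold of 0.05. The contrasts draw on the same samples. The p-values measure the spread between 2 repeats of these 5 lines only, and TPM allow no counting interval or detection floor.

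The 9 antigens, both lists and the contrasts were chosen with earlier results of these data known. The antigens were described and not tested, and their SE came from the pooled variance of the repeats of each gene. The text names every relative by its level, the 3 largest differences in each direction of each contrast among other antigens that were called and did not overlap, and the 2 nearest profiles of antigens that spanned at least 4 log2 units. By this rule and the marker list some named genes are not reported here, and the counts over the list of other antigens include them. In a simulation, 200 of 17520 genes were shifted by 1.5 log2 units in DU145 and PC3 against the rest. Of the shifted genes, 90.5% were recovered, 0 had the wrong sign, and 5.24% of calls were false. In the deposited data limma called 9093 genes higher and 3940 lower in this contrast. Whether the 5.24% holds with so many differences was not tested. Coordinates, biotypes and start windows are those of RefSeq for GRCh38.p14. The alternatives were a pseudocount of 0.1, no filter or at least 5 TPM, rescaling without mitochondrial genes, median-ratio scaling, quantile normalization, no variance trend, the repeat number as a block and leaving out each sample. Figures and sequence searches used Python 3.11.15, numpy 2.4.6, pandas 2.3.3 and matplotlib 3.10.9.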

Additional observations from a re-analysis of the deposited data

How the results depend on the processing

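Of 504 alternative values of the 9 antigens' differences, 442 moved by less than the spread between repeats and 62 moved further. No difference whose groups did not overlap turned its sign. The 442 include fits without a sample of a line outside the contrast, where the difference could not move. Other fits with a sample left out were judged against a spread that the same repeats gave. The count of 442 is therefore no measure of stability. NECTIN4 in DU145 and PC3 against the rest went from −1.97 to −4.49 with a pseudocount of 0.1. Quantile normalization took DPP4 from −0.23 to −0.78 and PSCA from −0.46 to −0.90 in that contrast, and median-ratio scaling took STEAP2 from 1.83 to 1.17 in LNCaP against DUCAP and VCAP and CD276 from −0.34 to −0.13 in DUCAP against VCAP. With each sample left out in turn, the relatives called numbered 27 to 29 in DU145 and PC3 against the rest, 17 to 22 in DU145 against PC3, 16 to 21 in LNCaP against DUCAP and VCAP and 4 to 10 in DUCAP against VCAP, and the other antigens called 31 to 35, 15 to 25, 24 to 31 and 2 to 13. In DUCAP against VCAP the other antigens, 8 in all, came to 4 without either LNCaP repeat or the first VCAP repeat, 2 without the first and 3 without the second DUCAP repeat, and 13 without either DU145 repeat. A sample left alone in its line was assumed to vary like the other lines. The other alternatives kept each count within 1.5 times of its value. The repeat number as a replicate block gave 28, 20, 19 and 7 relatives and 34, 25, 26 and 7 other antigens in the same order of contrasts. The pairing had no basis in the labels, and deviations of same-numbered repeats correlated at −0.191 to 0.249 over 10 pairs of lines (mean 0.00922). The median difference of all tested genes in DU145 and PC3 against the rest was 0.40, 0.22 without mitochondrial genes, 0.02 under median-ratio scaling and −0.07 under quantile normalization. The unknown depth limits what can be said of genes near 0 TPM, such as NECTIN4 in DU145 and PC3.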

Other observations

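Antisense and divergent transcripts at the antigen loci, chosen after their values were seen, were low in all samples. DPP4-DT, annotated as a divergent transcript of DPP4, was at 1.49 and 1.49 TPM in DUCAP, 1.21 and 1.59 TPM in PC3, 1.03 and 0.90 TPM in VCAP, 0.18 and 0.06 TPM in LNCaP, and was listed at 0 in both DU145 repeats. DUCAP, PC3 and VCAP, the lines with 10.1 TPM or more of DPP4, were thus the lines with 0.90 TPM or more of DPP4-DT. MME-AS1 was at 0.54 and 0.28 TPM in LNCaP and at most 0.06 TPM elsewhere, and STEAP2-AS1 was at most 0.65 TPM in any sample.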
